A study of Mus musculus with 8 samples.

Results

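The cell cycle genes of the mouse liver examined here are 39 genes listed by symbol, from the D-type cyclins that start the cycle to the kinases that run mitosis. All 39 were found by symbol among the 27179 genes of the deposited table. The listing by symbol uses no measured value, although the genes were chosen with earlier results of these data known. RNA was sequenced from the livers of 8 adult male C57BL/6NHsd mice after a 6 h fast. Of these, 4 were wild-type, with valine (V227) in PPARα, and 4 were V227A, homozygous for alanine (A227) at the same residue. The mutant line came from germline base editing of zygotes and was kept by crossing heterozygotes, so the change is in every cell type of the mouse and not only in hepatocytes. The values used are the authors' average log2 CPM (reads of a gene scaled to library size, on a log scale) over all 8 libraries. No genotype was compared with the other, and no SD or n per group can be given, because the values used are averages over both genotypes.

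Progression through the cell cycle is driven by cyclin-dependent kinases (CDKs), which are switched on by cyclins and held back by CDK inhibitors. D-type cyclins with Cdk4 or Cdk6 act in G1, E- and A-type cyclins with Cdk2 act at the start of and during S phase, and B-type cyclins with Cdk1 act at mitosis. Hepatocytes of the adult liver are mostly quiescent and re-enter the cycle after tissue loss, and in rodents potent PPARα agonists are known for driving hepatocyte proliferation. Genes of G2 and M phase are repressed in quiescent cells by the DREAM complex through the cell cycle genes homology region (CHR), often beside CCAAT boxes bound by NF-Y, while many genes of S phase carry E2F sites.

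Promoter stretches of 7 of these genes are shown because the letters of those elements differ by phase. Each stretch runs from 170 bases before to 30 bases after the RefSeq transcription start (GRCm38.p6), 5′ to 3′ along the gene. In the following 4, all but E2f8 being genes of G2 and M phase, capitals mark the CHR letters (TTTGAA) and the CCAAT letters on either strand.
Ccnb2 (chr9:70421525-70421724, minus strand): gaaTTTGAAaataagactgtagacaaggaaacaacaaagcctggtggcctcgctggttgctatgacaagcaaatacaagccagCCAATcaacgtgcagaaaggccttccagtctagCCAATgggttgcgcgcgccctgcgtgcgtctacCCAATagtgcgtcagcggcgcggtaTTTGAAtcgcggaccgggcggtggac
Cdk1 (chr10:69352883-69353082, minus strand): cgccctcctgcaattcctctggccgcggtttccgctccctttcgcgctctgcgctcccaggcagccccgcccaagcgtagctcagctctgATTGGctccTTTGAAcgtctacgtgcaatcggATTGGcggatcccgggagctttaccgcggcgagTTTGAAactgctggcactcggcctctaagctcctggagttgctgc
Cdc20 (chr4:118437314-118437513, minus strand): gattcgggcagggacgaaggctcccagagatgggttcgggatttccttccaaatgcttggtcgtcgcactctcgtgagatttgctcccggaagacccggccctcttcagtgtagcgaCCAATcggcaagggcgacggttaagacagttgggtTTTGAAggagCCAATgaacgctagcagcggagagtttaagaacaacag
E2f8 (chr7:48881567-48881766, minus strand): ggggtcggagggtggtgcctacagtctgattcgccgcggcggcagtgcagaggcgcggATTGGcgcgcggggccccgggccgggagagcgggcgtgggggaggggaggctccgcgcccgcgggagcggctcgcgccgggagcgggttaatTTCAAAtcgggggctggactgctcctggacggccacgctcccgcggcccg
Top2a, which encodes the topoisomerase that untangles replicated chromosomes, has its CHR letters on the other strand, as has E2f8.
Top2a (chr11:99024160-99024359, minus strand): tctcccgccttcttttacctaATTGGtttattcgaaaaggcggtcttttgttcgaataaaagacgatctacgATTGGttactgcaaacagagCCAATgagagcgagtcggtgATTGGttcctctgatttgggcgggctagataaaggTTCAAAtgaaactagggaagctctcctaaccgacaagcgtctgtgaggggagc
In the genes of the MCM helicase, which unwinds DNA at replication forks, capitals mark the E2F letters (TTTGGCGC or TTTCCCGC) and the CCAAT letters on either strand.
Mcm6 (chr1:128359676-128359875, minus strand): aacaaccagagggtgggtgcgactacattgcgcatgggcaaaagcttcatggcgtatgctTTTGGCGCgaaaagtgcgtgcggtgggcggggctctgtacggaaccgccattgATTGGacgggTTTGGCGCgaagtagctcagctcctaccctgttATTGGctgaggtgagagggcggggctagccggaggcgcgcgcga
Mcm5 (chr8:75109339-75109538, plus strand): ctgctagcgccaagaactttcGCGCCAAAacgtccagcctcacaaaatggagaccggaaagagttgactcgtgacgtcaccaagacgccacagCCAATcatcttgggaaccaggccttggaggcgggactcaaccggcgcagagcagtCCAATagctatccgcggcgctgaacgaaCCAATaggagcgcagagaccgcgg

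To set these genes on a common scale, reads per library were estimated from the average log2 CPM. The lowest average in the table, -3.78, is shared by 8242 genes without reads, and with a prior count of 2 it gives a mean effective library size of 27474000 reads. Each library's own depth is unknown. Levels of different genes were compared as reads per kb of the longest transcript, and each is given with an exact 95% Poisson interval for its total over the 8 libraries. These intervals cover counting error only, and neither the spread between mice nor the spread between genotypes is in them. Percentiles are the position of a gene's reads per kb among 17878 genes with reads and a known length, where the median gene had 38.9 reads per kb.

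All 39 genes had reads. At a minimum of 10 estimated reads per library, 36 of the 39 were detected, beside 68.8% of the 18937 genes with reads. The 3 under the minimum are genes of mitosis. They were Plk1, a kinase of mitotic entry and spindle assembly, with 5.71 reads per library, Aurkb, the kinase of the chromosomal passenger complex, with 4.13, and Ccnb1 (cyclin B1) with 1.76. Just above the minimum stood Foxm1, a transcription factor of G2 and M phase genes, with 10.1 reads per library (8.04 to 12.6), and Cdc20, which activates the anaphase-promoting complex, with 11.3 (9.05 to 13.8), so that both intervals include the minimum. Together the 39 genes took 6329 reads per library, or 0.0230% of all estimated reads. Of these genes, 15 stood above the median gene per kb and 24 below it.

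Levels spread from 443 reads per kb for Cdk4 (433 to 453) to 0.706 for Ccnb1 (0.384 to 1.18), which are the 85.9 and 15.8 percentiles. In the order of levels per kb, 21 of the 38 neighbouring pairs had overlapping intervals, so counting error alone leaves those neighbours unordered. Distant genes can also change places with the length used. Gmnn had 301 reads per kb and Cdkn1b 89.2, but their reads per library were 339 and 406. The leading genes were Cdk4, then Gmnn (geminin, the inhibitor of origin licensing) at 301 reads per kb, Ccnd3 (cyclin D3) at 272, Pcna (the sliding clamp of DNA polymerase) at 175 and Myc at 129. None of these 5 intervals overlapped the next. The first place of Cdk4 rests on the length used, since in reads per library Ccnd3 stood above it (1051 against 910).

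**Figure D1:**
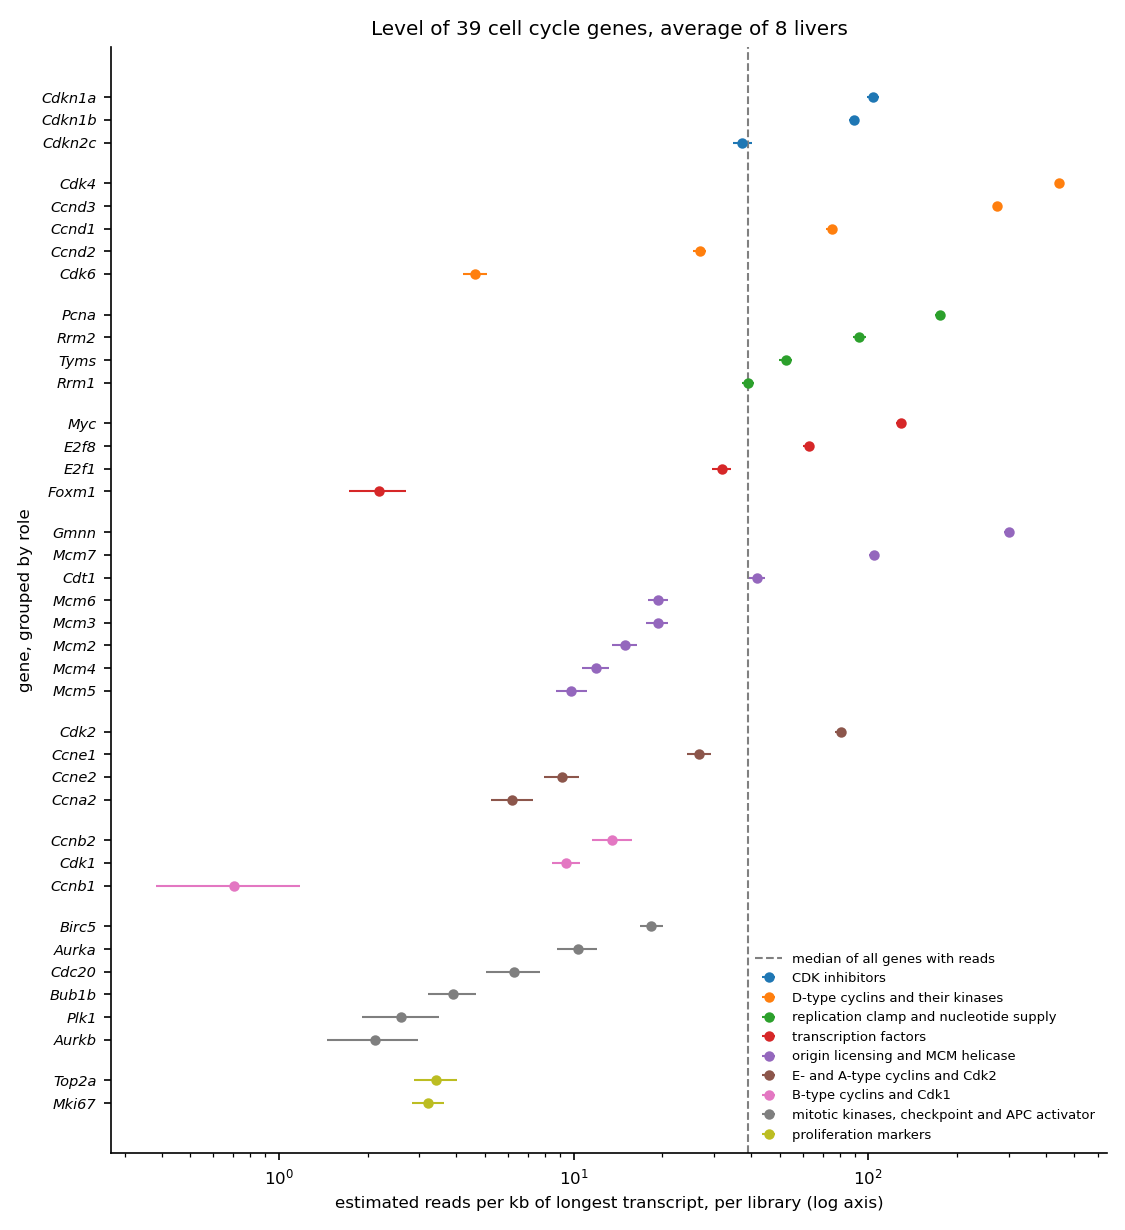
Estimated reads per kb of the longest transcript per library (log axis) for each of the 39 genes, grouped by role, as the average over 8 livers. Points are levels, bars are 95% Poisson intervals of counting error, and the dashed line is the median gene at 38.9 reads per kb. All 11 genes of the B-type cyclin, mitotic and marker groups lie left of that line.

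Among the G1 genes, Cdk4 and Ccnd3 led their families. Ccnd3 had 1051 reads per library and 272 reads per kb, Ccnd1 (cyclin D1) had 281 reads and 75.1 per kb, and Ccnd2 (cyclin D2) had 169 reads and 26.8 per kb. Ccnd3 was therefore 3.63-fold (3.46 to 3.80) above Ccnd1 and 10.2-fold (9.61 to 10.8) above Ccnd2 per kb. This order of the D-type cyclins was the same with mean transcript length, the principal coding transcript or no length, although the ratio of Ccnd3 to Ccnd1 ran from 3.63 to 6.62. The 2 partner kinases differed more than the cyclins. Cdk4 had 910 reads per library and Cdk6 had 53.4, and per kb Cdk4 was 95.7-fold (86.8 to 106) above Cdk6. Cdk6 has a transcript of 11525 bases, and the ratio was 46.9 with mean transcript length and 17.0 without division by length.

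The genes of the transition into S phase ran lower. Cdk2, the partner of cyclins E and A, had 80.8 reads per kb (77.4 to 84.3). Its cyclins Ccne1 (cyclin E1), Ccne2 (cyclin E2) and Ccna2 (cyclin A2) had 26.7, 9.10 and 6.19 reads per kb, all below the median gene. Ccne1 was 2.93-fold (2.48 to 3.46) above Ccne2 and 4.31-fold (3.56 to 5.23) above Ccna2. Cdk4 was 5.48-fold (5.22 to 5.76) above Cdk2, and Cdk2 was 8.57-fold (7.63 to 9.65) above Cdk1, the kinase of mitotic entry. The kinases of the cycle thus fell in the order Cdk4, Cdk2, Cdk1 and Cdk6 per kb. The first 3 kept that order at each length tried, while Cdk1 and Cdk6 changed places without division by length (Cdk1 at 0.773 of Cdk6).

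The inhibitors of the CDKs were near or above the median gene. Cdkn1a (p21, a target of p53) had 216 reads per library and 104 reads per kb (99.0 to 109). Cdkn1b (p27, which restrains Cdk2 in quiescent cells) had 406 reads per library and 89.2 reads per kb (86.2 to 92.3). Cdkn2c (p18, which binds Cdk4 and Cdk6) had 92.4 reads per library and 37.4 per kb (34.7 to 40.2), an interval that includes the median gene. The order of p21 and p27 rests on the length used, since Cdkn1a was 1.16-fold above Cdkn1b per kb and 0.532 of it in reads. With a median at the 61.6 percentile, these 3 genes had the highest median of the 9 roles at this choice of length.

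Origin licensing and the MCM helicase gave uneven levels within a single machine. The 6 subunits Mcm2 to Mcm7 assemble into the helicase in equal numbers. Mcm7 had 104 reads per kb, while Mcm6 had 19.4, Mcm3 19.3, Mcm2 15.0, Mcm4 11.9 and Mcm5 9.83. The 5 subunits other than Mcm7 lay below the median gene and within 1.97-fold (1.71 to 2.28) of each other, as given by Mcm6 over Mcm5, or within 2.95-fold with the principal coding transcripts. Mcm7 was 5.38-fold (4.94 to 5.87) above Mcm6 and 10.6-fold (9.34 to 12.1) above Mcm5. Near-identical sequence bears on Mcm7, of which 72.8% of the transcript is matched by the processed pseudogene Gm5487 on chromosome 16, and its exons share bases with the microRNA genes Mir25 and Mir93 on the same strand and with Ap4m1 and Cops6 on the other. The part of these neighbours in the Mcm7 level was not tested. The licensing factor Cdt1, which loads the helicase, had 41.8 reads per kb (39.1 to 44.6), and its inhibitor Gmnn was 7.19-fold (6.67 to 7.77) above it.

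The clamp and the enzymes of nucleotide supply were all at or above the median gene. Pcna had 175 reads per kb (168 to 183). Rrm2 and Rrm1, the small and large subunits of ribonucleotide reductase, had 93.3 and 39.2 reads per kb, and Tyms (thymidylate synthase, which makes dTMP) had 52.4. Rrm2 stood 2.38-fold (2.23 to 2.55) above Rrm1 per kb, but the 2 had 205 and 214 reads per library, so this order comes with the longer Rrm1 transcript. Rrm2b, the p53-induced small subunit used outside S phase, had 10.6 reads per kb, and Rrm2 was 8.83-fold (7.89 to 9.88) above it.

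Transcription factors of proliferation spread over 59.1-fold, from Myc to Foxm1. Myc, which drives growth and cell cycle entry, had 301 reads per library and 129 reads per kb (124 to 134). E2f8, a repressor of the E2F family that acts in hepatocyte polyploidization, had 62.7 reads per kb (59.9 to 65.6), and E2f1, an activator of S phase genes, had 31.8 (29.5 to 34.3). E2f8 was 1.97-fold (1.80 to 2.15) above E2f1, and it was 19.2-fold (16.2 to 22.9) above E2f7, its partner in repression, at 3.27 reads per kb. Foxm1 had 2.18 reads per kb (1.73 to 2.71), which overlapped Plk1 and Aurkb.

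Genes of mitosis formed the low end. Ccnb2 (cyclin B2) had 20.7 reads per library and 13.5 per kb (11.6 to 15.8), and Ccnb1 had 0.706 per kb, so Ccnb2 was 19.2-fold (11.2 to 36.0) above Ccnb1. Ccnb1 has 4 near-identical copies that match 51.9% of its transcript. Among them Ccnb1-ps, a processed pseudogene, is listed in the table with 0.746 reads per library. Cdk1 had 41.2 reads per library and 9.42 reads per kb (8.44 to 10.5). Birc5 (survivin, of the chromosomal passenger complex) was the highest of the mitotic group at 18.4 reads per kb (16.8 to 20.1), followed by Aurka (the kinase of spindle poles) at 10.3, Cdc20 at 6.29, Bub1b (BubR1, of the spindle checkpoint) at 3.90, Plk1 at 2.60 and Aurkb at 2.12. Birc5 was 8.67-fold (6.10 to 12.8) above its partner Aurkb, a ratio that rose to 30.5 with the principal coding transcripts, where Birc5 is 947 bases long.

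The 2 genes most used to mark dividing cells were also low. Mki67, which encodes the Ki-67 protein that coats mitotic chromosomes, had 32.2 reads per library and 3.20 reads per kb (2.83 to 3.62). Top2a had 17.9 reads per library and 3.43 per kb (2.89 to 4.03). These intervals overlapped, with a ratio of Top2a to Mki67 of 1.07 (0.865 to 1.32). Pcna, at times used for the same purpose, was 54.7-fold (48.0 to 62.4) above Mki67 per kb and 8.25-fold above it in reads.

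By role, median percentiles ran from 61.6 for the CDK inhibitors, 59.1 for the D-type cyclins and their kinases and 58.2 for the clamp and nucleotide enzymes, through 51.9 for the transcription factors, 42.3 for licensing and the MCM helicase and 40.4 for the E- and A-type cyclins and Cdk2, to 35.6 for the B-type cyclins and Cdk1, 30.2 for the mitotic kinases, checkpoint and APC activator and 27.0 for the 2 markers. Joined after the levels had been seen, the 24 genes of G1, S phase and inhibitor roles had a median at the 50.5 percentile with 13 above the median gene, and the 11 genes of G2, M phase and marker roles had a median at 28.2 with 0 above it. Both values are descriptions of one average with no test. The 4 transcription factors, Foxm1 among them, were in neither group.

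**Figure D2:**
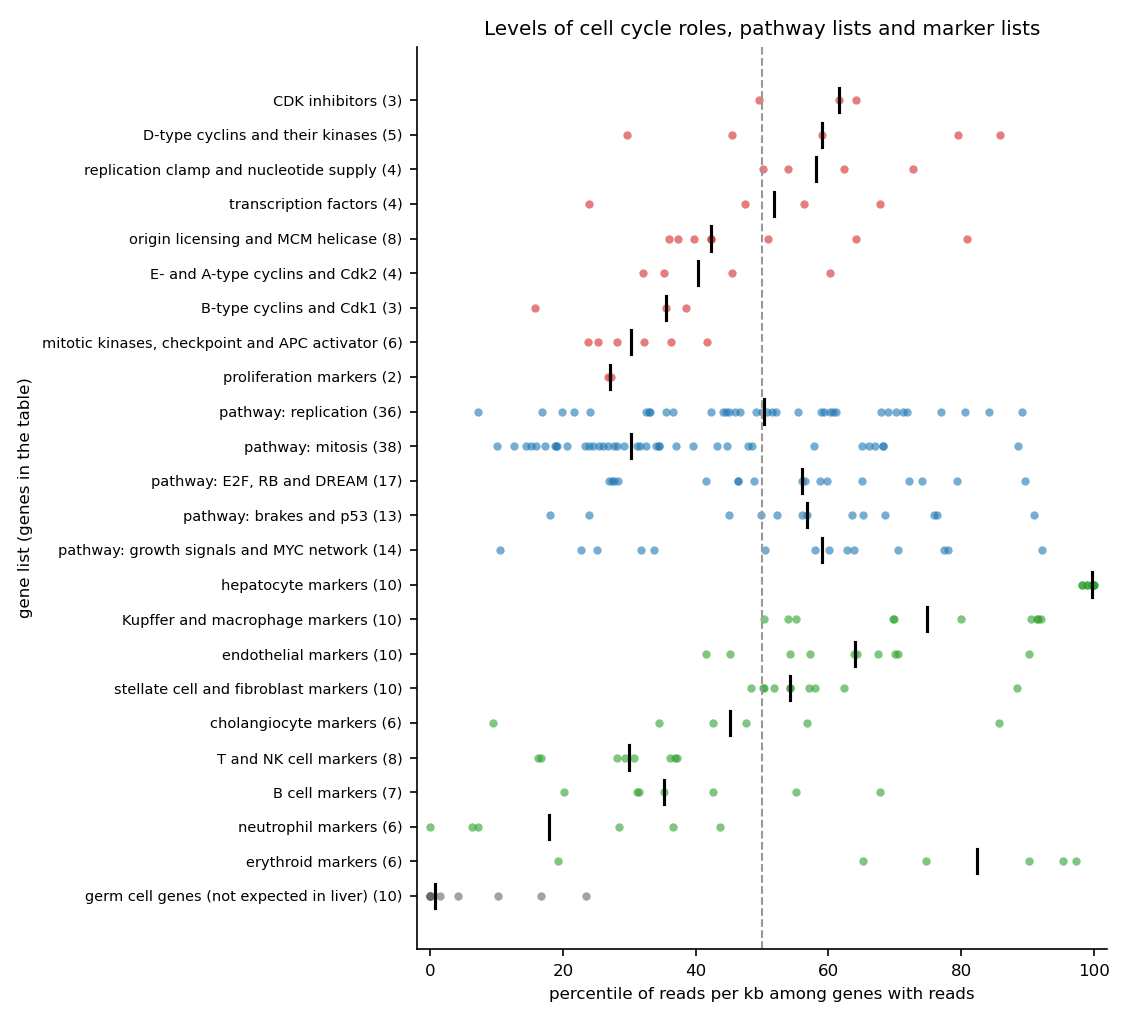
Percentile of reads per kb among 17878 genes with reads (horizontal axis) for each gene of the 9 roles (red), 5 pathway lists (blue), 9 marker lists (green) and germ cell genes (grey), with the number of genes in brackets. Black ticks are medians, and the dashed line is the 50 percentile. Among the 9 roles the medians fall from 61.6 for the CDK inhibitors to 27.0 for the markers Mki67 and Top2a.

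Wider lists of the same machinery, none of them holding any of the 39 genes, were read on the same scale. Of 36 further genes of DNA replication, 31 (86.1%) were detected, beside 68.8% of all genes with reads, with a median at the 50.4 percentile. The highest were Mcm10 (an initiation factor that helps activate the helicase) at 630 reads per kb, Gins4 (of the GINS complex) at 386 and Tk1 (thymidine kinase) at 292. Mcm10 exceeded every MCM subunit, and its exons share 0 bases with other annotated genes. The lowest were Cdc7 (the kinase that fires origins) at 1.26, Cdc6 (a loader of the helicase) at 0.816 and Orc1 (of the origin recognition complex) at 0.166 reads per kb. All 3 act at origins, as does Mcm10.

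Of 38 further genes of mitosis, 27 (71.1%) were detected, a share near the 68.8% of all genes with reads. The median of the 38 was the 30.2 percentile, with 31 below the median gene. Pttg1 (securin, which guards sister chromatid cohesion) had 585 reads per kb, and Smc4 (a condensin subunit) and Bub3 (a spindle checkpoint protein that also acts outside mitosis) had 133 each. Bub3 was 34.2-fold (28.5 to 41.7) above its checkpoint partner Bub1b. At the low end stood Melk, a kinase of proliferating cells, at 0.592, Espl1 (separase, held in check by securin) at 0.428 and Cdc25c (the phosphatase that activates Cdk1) at 0.286 reads per kb. Fzr1 (Cdh1, the activator of the anaphase-promoting complex in G1 and quiescence), named after its value was seen, was 19.5-fold (15.8 to 24.4) above Cdc20, the activator in mitosis.

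All 17 genes listed for E2F, RB and DREAM were detected, beside 68.8% of all genes with reads, with a median at the 56.1 percentile. Rbbp4, a histone-binding subunit that DREAM shares with other complexes, had 666 reads per kb, E2f4, the repressor E2F of quiescent cells, had 268 and the DREAM subunit Lin37 had 190. Mybl2 (B-Myb, which replaces the repressive parts in cycling cells) at 3.63, Rbl1 (p107) at 3.46 and E2f7 at 3.27 reads per kb were the lowest. Rbl2 (p130, the pocket protein of DREAM in quiescent cells), also named after its value was seen, was 48.7-fold (40.9 to 57.9) above Rbl1 and 5.77-fold (5.41 to 6.16) above Rb1. E2f4 was 8.42-fold (7.77 to 9.13) above E2f1.

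The promoter letters differed between the phases. RefSeq windows of 300 bases, from 250 before to 50 after the start, were found for 30 of the 39 genes, and a gene was counted where any of its windows held the letters on either strand. The 9 genes without a window were Aurkb, of the mitotic group, and Ccna2, Ccnd1, Ccnd2, Ccne2, Foxm1, Gmnn, Mcm4 and Myc. Their promoters are not in the counts. CHR letters stood in 10 of the 30, beside 20.2% of 27025 genes of the promoter table. They stood in 8 of the 10 genes of G2, M phase and marker roles, namely Aurka, Bub1b, Ccnb2, Cdc20, Cdk1, Mki67, Plk1 and Top2a, and in 2 of the 20 others, E2f8 and Mcm2. Here the others include the transcription factors E2f1 and E2f8. In a window of 200 bases, from 170 before to 30 after the start, the counts were 5 of 10 and 2 of 20, beside 13.4% of genes. CCAAT letters stood in 9 of the 10 and in 13 of the 20, beside 41.1%. All 10 genes with CHR letters also had CCAAT letters. Both motifs thus stood in 10 of the 30 genes, beside 7.97% of all genes. E2F letters stood in 0 of the 10 and in 6 of the 20 (Cdk2, Cdt1, Mcm3, Mcm5, Mcm6 and Mcm7), beside 1.80% of all genes. No window of these genes had letters that 2 motifs share.

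**Figure D3:**
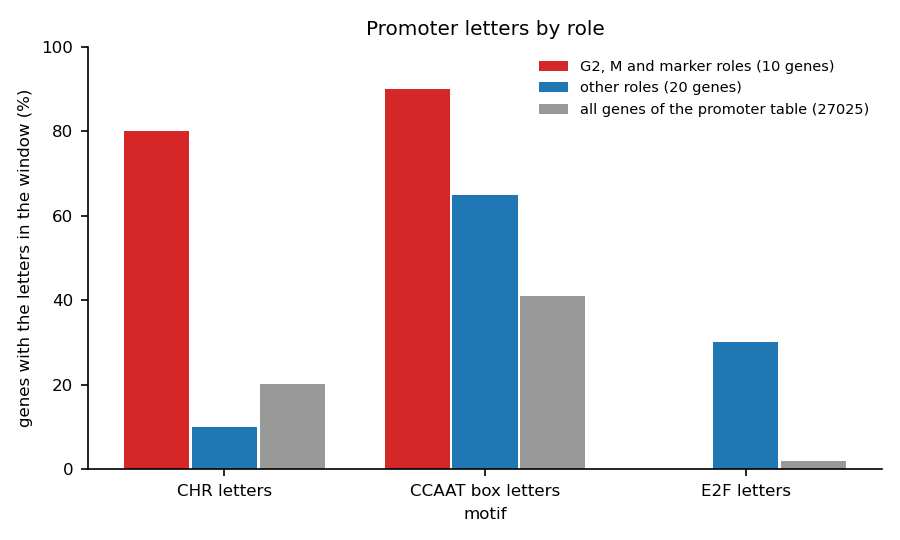
Share of genes (%) whose 300-base promoter window holds the CHR, CCAAT or E2F letters, for 10 genes of G2, M phase and marker roles (red), 20 genes of other roles (blue) and 27025 genes of the promoter table (grey). CHR letters are in 8 of 10 against 2 of 20 genes, and E2F letters in 0 of 10 against 6 of 20.

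The median level of the 10 genes with CHR letters was 7.86 reads per kb, and that of the 20 without was 40.5. As 8 of the 10 are genes of G2, M phase and marker roles, this difference cannot be told apart from that between the roles. Within those roles, Birc5 and Ccnb1 lacked the letters and stood highest and lowest, at 18.4 and 0.706 reads per kb. Of the printed stretches with CHR letters, Ccnb2 and Cdk1 belong to genes at 13.5 and 9.42 reads per kb, Cdc20 and Top2a to genes at 6.29 and 3.43, and E2f8 to a gene at 62.7. Among holders of E2F letters, Mcm7 at 104 and Mcm5 at 9.83 reads per kb were far apart as well. A match of letters is not a bound site, and a lack of these exact letters is not the lack of a site. No binding was measured.

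Near-identical sequence elsewhere in the genome, as matches of at least 95% identity over at least 100 bases, was found for 9 of the 39 genes. In 5 of them the matches covered more than 20% of the transcript. Beside Mcm7 and Ccnb1, they covered 51.4% of the Pcna transcript (Pcna-ps2, chromosome 19), 41.6% of Ccnd3 (Ccnd3-ps, chromosome 4) and 27.9% of Rrm2 (2 copies, the longer on chromosome 13). How the authors' counting treated reads with several matches is not given in the sources used here, so these levels are uncertain. The other 4 genes had less covered, with 11.5% for Tyms, 4.69% for Cdk6, 4.32% for Mcm5 and 2.15% for Mki67. Of the genes named from the wider lists, more than 20% was covered in Lin37 (74.2%), Cdc6 (59.5%), Mybl2 (28.3%) and Rrm2b (23.0%), whose levels are uncertain in the same way. Without the 5 genes above 20%, the G2, M phase and marker roles had a median at the 30.2 percentile and the G1, S phase and inhibitor roles at 47.5. Exons of 13 of the 39 genes share bases with a gene on the opposite strand, up to 23.4% of exon bases for Ccnd1 (with LTO1) and 19.7% for Cdk4 (with Tspan31). The libraries were stranded, but the strand setting of the counting is not given in the sources used here.

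**Figure D4:**
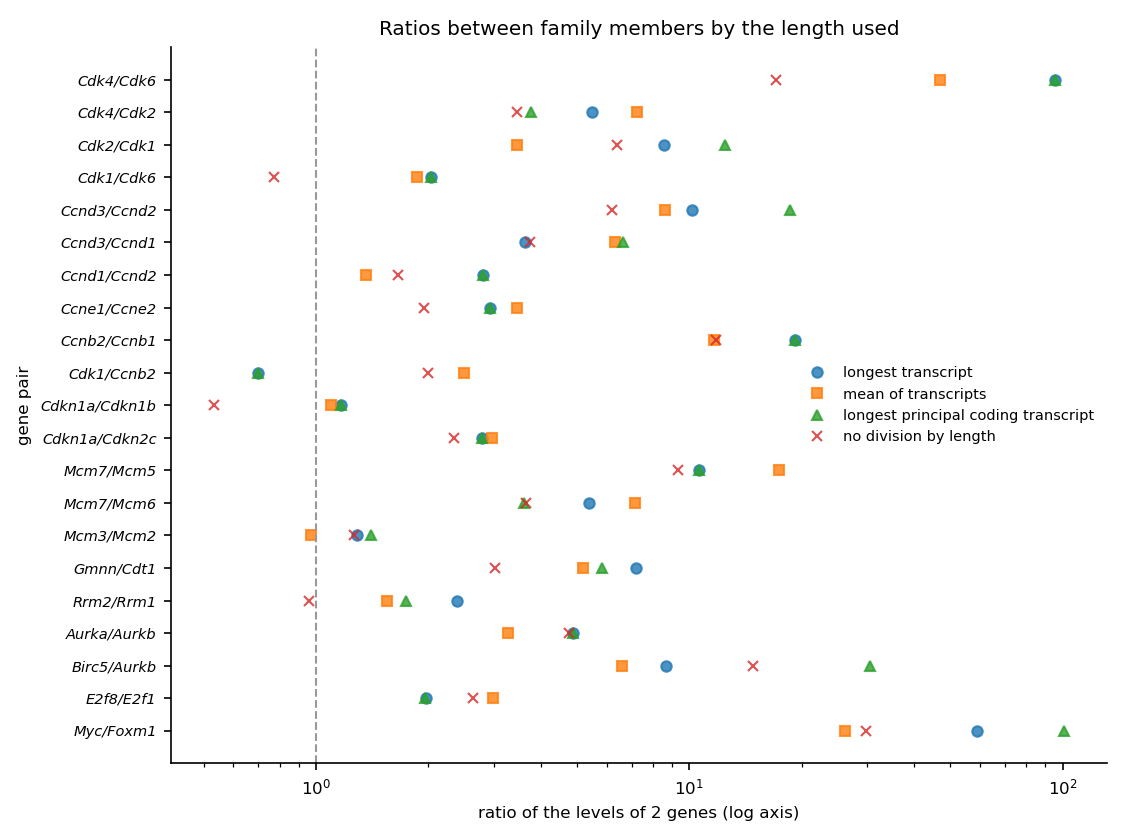
Ratios of level (log axis) for 21 pairs of genes under 4 choices of length: the longest transcript (circles), the mean of the transcripts (squares), the longest principal coding transcript (triangles) and none (crosses). The dashed line marks a ratio of 1, crossed by Cdk1/Cdk6, Cdk1/Ccnb2, Cdkn1a/Cdkn1b, Mcm3/Mcm2 and Rrm2/Rrm1.

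Several ratios kept their direction but moved by over 1.5 times with the length used. Per kb of mean transcript length, Cdk2 was 3.46-fold above Cdk1, Ccnb2 11.6-fold above Ccnb1, Myc 26.1-fold above Foxm1, E2f8 2.98-fold above E2f1 and 10.4-fold above E2f7, Mcm7 17.4-fold above Mcm5, E2f4 14.3-fold above E2f1 and Rbl2 3.54-fold above Rb1. Without division by length, Cdk4 was 3.45-fold above Cdk2, Ccne1 1.95-fold above Ccne2, Gmnn 3.01-fold above Cdt1, Rrm2 4.24-fold above Rrm2b and Fzr1 33.2-fold above Cdc20. With the principal coding transcripts, Myc was 101-fold above Foxm1, Ccnd3 18.6-fold above Ccnd2 and Bub3 61.9-fold above Bub1b. The intervals given with the ratios do not include this choice.

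Liver holds several cell types, and in bulk RNA fewer cells of a type and less RNA per cell cannot be told apart. The counts of markers detected stand beside 68.8% of all genes with reads. Hepatocyte markers dominated, with a median at the 99.7 percentile. The 3 highest were Alb, Apoa1 and Ttr, and the 3 lowest were Cps1 at 9133 reads per kb, Apob at 5709 and Hnf4a at 5122. All 10 markers of Kupffer cells and macrophages were detected (median 74.9 percentile, from Clec4f, C1qb and C1qa to Marco, Timd4 and Adgre1), as were all 10 of endothelium (64.1, from Clec4g, Stab1 and Stab2 to Kdr, Tek and Vwf) and all 10 of stellate cells and fibroblasts (54.2, from Dcn, Hand2 and Des to Lrat, Pdgfrb and Col1a1). Of cholangiocyte markers 5 of 6 were detected (45.1, from Spp1, Krt19 and Sox9 to Epcam, Krt7 and Cftr), and of erythroid markers 5 of 6 (82.5, with Hbb-bs, Alas2 and Hba-a1 the highest), with Hbb-bt not analysed here. T and NK cell markers had a median at the 30.02 percentile with 5 of 8 detected, from Trac, Cd4 and Nkg7 to Klrb1c, Cd8a and Ncr1. B cell markers stood at 35.2 with 5 of 7, with Igkc, Ighm and Cd79b the highest. Neutrophil markers stood at 17.8 with 1 of 6, S100a9, followed by S100a8 and Retnlg, then Camp and Ly6g at under 1 read per library and Mpo without reads. The part of these cells in the mitotic levels was not tested. Of 10 germ cell genes 0 were detected. Sycp3, Sycp1, Ddx4, Dazl and Acrv1 had up to 2.75 reads per library, and Prm1, Prm2, Tnp1, Tnp2 and Odf1 had none.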

How the data were processed

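Per the labels and the study's methods, the authors made stranded poly-A libraries from 4 wild-type and 4 V227A livers, sequenced paired ends, trimmed reads (Trimmomatic), checked quality (FastQC), mapped to GRCm38 (RNA STAR), counted reads on genes (featureCounts) and fitted edgeR. Versions, annotation, the strand setting, filters and covariates are not given in the sources used here. The deposited table holds the average log2 CPM of each gene over all 8 libraries, made by the authors, and 4 columns of their own comparison of the genotypes (log2 fold change, F statistic, p-value and FDR), which were not used. Columns of other samples that were left out numbered 0. With no values per library, the planned count test of the genotypes was not run.

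Reads per library were estimated from the floor of the average log2 CPM (-3.78) and an assumed prior count of 2, giving a mean effective library size of 27474000 reads. Of 2378 genes with totals of 1 to 5 reads, 99.9% came within 0.1 of a whole number. Lengths and copies came from GENCODE vM21 and promoters from RefSeq, both on GRCm38, and 94.4% of genes with reads had a length. Steps used Python 3.11.15, pandas 2.3.3, numpy 2.4.6, scipy 1.17.1 and matplotlib 3.10.9. Only the estimate of reads was tested on simulated data. The simulation used the same prior count of 2, so it did not test that choice. The text names all 39 genes, and from each wider list the 3 highest and 3 lowest per kb with reads and every gene without reads. The lowest genes of the B cell and erythroid marker lists are not reported here. The genes and the lists were chosen with earlier results of these data known.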

Additional observations from a re-analysis of the deposited data

How the results depend on the processing

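The detected count of 36, beside 68.8% of all genes with reads, became 39 beside 85.1% at a minimum of 1 read. At a minimum of 30 reads it was 28 beside 60.7%. With no prior count removed it was 36 beside 70.5%. The median percentile of the 39 genes, 42.4, moved to 23.2 among genes with an average log2 CPM of at least 0 (29 of the 39), to 46.0 without division by length and to 40.2 with the longest principal coding transcript. For the G1, S phase and inhibitor roles, 50.5 moved to 56.0 with mean transcript length, 56.9 without length, 48.4 with the principal transcript and 47.5 without the 5 genes that have over 20% of their transcript in near-identical copies. For the G2, M phase and marker roles, 28.2 moved to 33.0, 35.3, 24.1 and 30.2 under the same settings and to 25.8 with no prior count removed, and stayed below the other group in each. CHR letters in G2, M phase and marker genes fell from 8 to 5 in the shorter window, where matches past base 30 or before base 170 are outside by construction.

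Orders that turned with length were Cdk1/Cdk6 (0.773 without length), Cdk1/Ccnb2 (0.697 per kb, 2.49 with mean length, 1.99 without), Cdkn1a/Cdkn1b (0.532 without), Mcm3/Mcm2 (0.970 with mean length), Rrm2/Rrm1 (0.955 without), Bub1b/Cdc20 (0.620 per kb, 1.27 without) and Top2a/Mki67 (0.555 without). Cdk4 and Ccnd3 turned as well, at 443 and 272 reads per kb but 910 and 1051 reads per library. The principal transcript, the copies, the ratios under other lengths and the shorter window were chosen after seeing the data. No paired analysis was possible because the values used are averages over all 8 libraries, and leaving out single libraries and other count tests were not run for the same reason. The depth of single libraries and the spread between mice are unknown.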

Other observations

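Genes of the anti-proliferative and p53 pathways, other than the CDK inhibitors among the 39 genes, were mostly above the median gene. Of 13 such genes, 11 (84.6%) were detected, beside 68.8% of all genes with reads. Of the 13, 9 stood above the median gene of 38.9 reads per kb, and the median of the 13 was the 56.8 percentile. Tob1, an anti-proliferative protein of the BTG family, had 788 reads per kb, Ccng1 (cyclin G1, a target of p53) had 217 and Mdm2 (the ubiquitin ligase of p53) had 211. Cdkn1c (p57) had 25.4 reads per kb, while Cdkn2b (p15) had 2.17 and Cdkn2a (p16 and ARF, known for senescence) had 0.983. Cdkn2a had 0.880 reads per library, beside 216 for Cdkn1a and 406 for Cdkn1b.

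The list of growth signals and the MYC network holds receptors, ligands and MYC factors. Per kb, the receptors Egfr and Met stood above every ligand listed. Of 14 genes 11 (78.6%) were detected, beside 68.8% of all genes with reads, with a median at the 59.1 percentile. Egfr, the receptor of the epidermal growth factor family, had 948 reads per kb, and Met, the receptor of hepatocyte growth factor, had 233. Of the ligands, Egf had 1.84 and Areg (amphiregulin) 0.309 reads per kb, and Hgf and Hbegf, named after their values were seen, had 7.61 and 6.01, whereas Tgfa, named in the same way, had 102. Max, the partner that MYC proteins need to bind DNA, had 243 reads per kb and was 1.89-fold (1.80 to 1.99) above Myc, a ratio of 1.10 with principal coding transcripts. Myc was 50.5-fold (38.4 to 66.7) above Mycn, at 2.55 reads per kb, a ratio of 86.6 with principal coding transcripts. Mycl, also named after its value was seen, had 79.9, and Myc was 1.61-fold (1.52 to 1.71) above it, a ratio of 2.76 with principal coding transcripts, 1.09 with mean transcript length and 1.08 without length. As averages over all 8 livers, these values say nothing of the genotypes.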
